A study of Homo sapiens with 4 samples.

Results

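The collagen genes of the host are described here across the cells that had grown into and around xenografts built on aged or young breast matrix. All mouse genes named Col, a number, a and a number were taken, which gave 44 of the 32285 mouse genes in the count tables. The same tables hold 36601 human genes, which belong to the implanted cancer cells. By structural type the 44 members comprised 11 fibrillar, 6 basement membrane, 2 multiplexin, 6 beaded, 9 FACIT, 3 short-chain network, 1 anchoring fibril and 4 transmembrane collagen genes, and 2 others.

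MCF10DCIS.com cells, a human breast line that models ductal carcinoma in situ, were grown for 12 days on decellularised matrix (dECM) of mouse mammary gland. The aged matrix came from donors of 18 months or older and the young matrix from donors of 2 to 3 months. Both kinds of graft went into fat pads of the same Rag1-/- mice, hosts without mature lymphocytes of the T and B lineages, and were taken out 4 weeks later as tumor with the adjacent stroma. Per the study's design text 3 samples went to sequencing, and how many mice each pool holds is not given. Each group is 1 pool of cells and 1 gene expression library, made with the 3′ chemistry of 10x Genomics after removal of dead cells. The host cells of both groups are thus Rag1-/- cells of a recipient whose own age the labels do not give, and the age in the group names is that of the matrix donor.

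Collagens are triple helices of 3 chains. Fibrillar collagens, above all types I and III, form the cables that give connective tissue its strength, with types V and XI as minor partners that limit fibril width. Type IV forms the sheet of the basement membrane under epithelium and around vessels, and the multiplexins XV and XVIII lie in or beside it. Type VI makes beaded filaments around cells, and FACITs such as types XII and XIV sit on the surface of fibrils and link them to other matrix. In the mammary gland most of this matrix is laid down by fibroblasts, while endothelial cells and pericytes make vessel basement membrane.

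The aged matrix pool held 17757 barcodes and 188583544 gene UMIs (unique molecular identifiers, each counted once), and the young matrix pool 16965 barcodes and 187438011 gene UMIs. Barcodes with at least 90% mouse UMIs were taken as host cells, and after filters and removal of likely doublets 12924 aged and 11946 young cells were kept. Most were neutrophil-like, 9805 in the aged and 9484 in the young pool. Fibroblast-like cells numbered 1017 in the aged and 643 in the young pool, and had all 12 fibroblast markers at 20 CPM or more. The 2 libraries share 190 barcode sequences, 143 of them among the kept cells. With 1 library per group no difference between pools could be tested, so every interval below is an exact 95% interval that covers counting error only and says nothing of the spread between mice. Levels are given as CPM, the UMIs of a gene scaled to a fixed total of mouse gene UMIs in that group of cells. They are not scaled by gene length, so levels are compared between cells and between pools, and ratios of chains between cells.

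Most collagen RNA of the host lay in fibroblast-like cells. Fibroblast-like cells were 7.87% of the kept cells in the aged pool and 5.38% in the young pool, and they held 88.1% (88.0 to 88.2) of all host collagen UMIs in the aged pool and 83.0% (82.8 to 83.1) in the young pool. Endothelial-like cells, 121 aged and 124 young, held 2.40% and 4.39%. A cluster led by Rgs5, Actg2 and Tagln, contractile and pericyte genes, together with genes of the cell cycle (called the Tagln cluster), held 8.22% in the aged and 10.9% in the young pool. Of the 44 members, 25 reached 20 CPM in at least 1 named class of cells in at least 1 pool, and 14 had fewer than 100 UMIs over all kept cells. Those at 20 CPM or more included 8 of 11 fibrillar, 3 of 6 basement membrane, 3 of 6 beaded, 4 of 9 FACIT and both multiplexin genes.

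**Figure D1:**
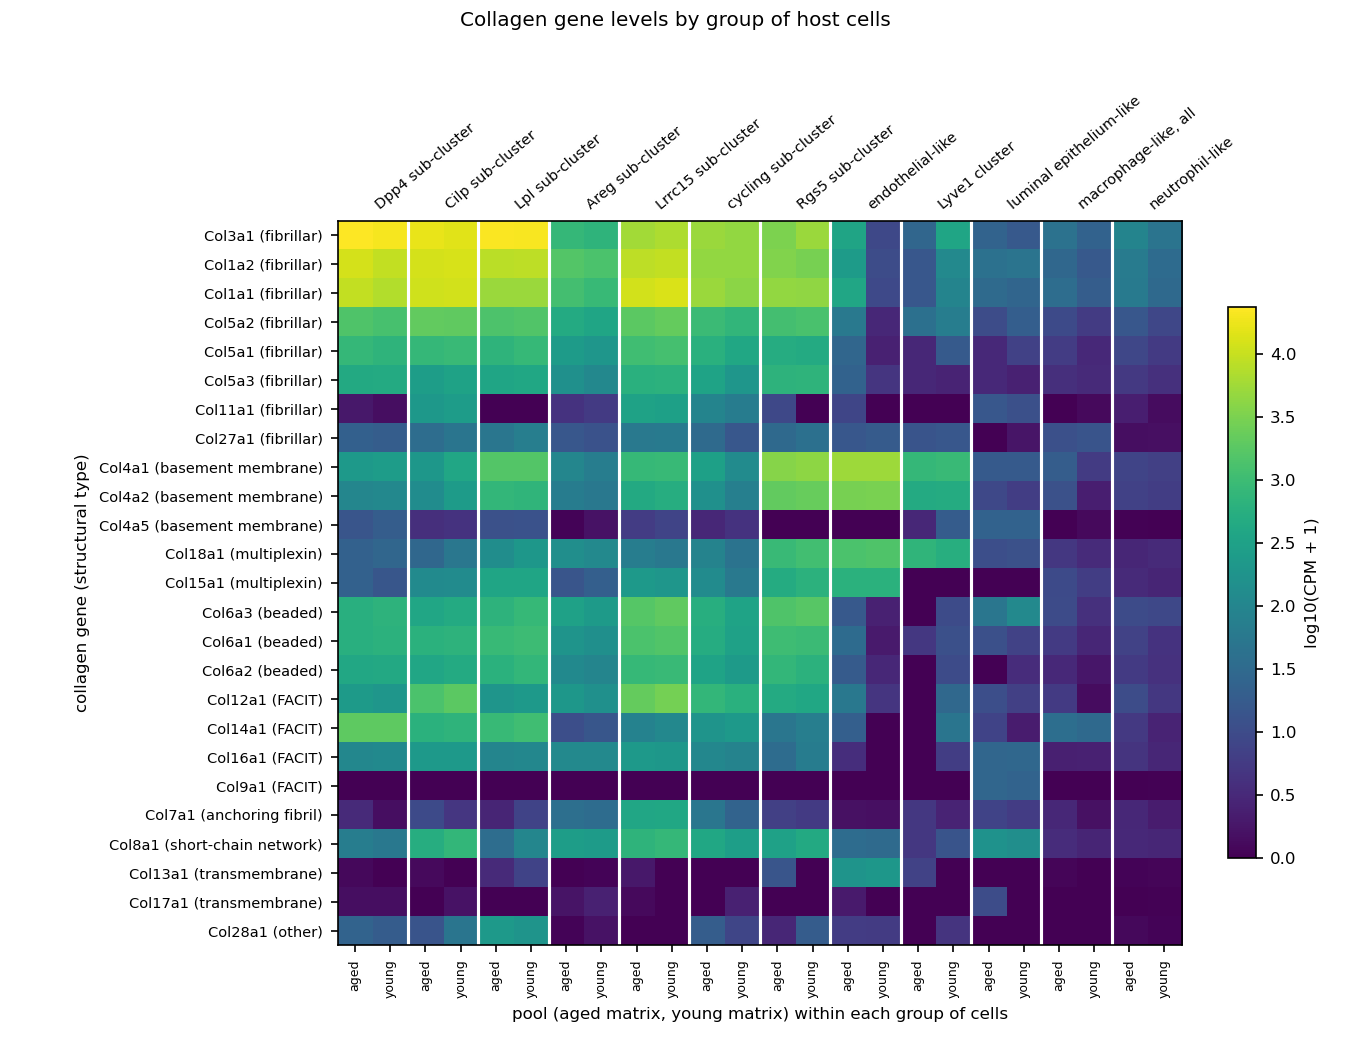
Level of the 25 collagen genes that reached 20 CPM in a named class, as log10(CPM + 1), with genes down the page by structural type and groups of host cells across, the aged matrix pool left of the young one in each pair. Fibrillar and beaded genes fill the fibroblast sub-clusters on the left, Col4a1, Col4a2 and Col18a1 peak in the Rgs5 and endothelial-like columns, and Col9a1 is seen in luminal epithelium-like cells.

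The fibroblast-like cells formed 2 clusters when collagen genes were left out of the clustering, and these differed in which collagens they used. The cluster led by Ogn, Sfrp4, Efemp1 and Dpt (610 aged and 292 young cells; called the Dpt cluster below) spent 4.88% of its UMIs on collagen in the aged and 4.33% in the young pool. The cluster led by Grem1, Mmp10, Cdkn2a and Il11 (407 aged and 351 young cells; called the Grem1 cluster) spent 1.44% and 1.04%. Of the 12 fibroblast markers, 12 reached 20 CPM in the Dpt and 9 in the Grem1 cluster. They summed to 19749 CPM in aged and 18582 CPM in young cells of the Dpt cluster, and to 6428 and 6604 CPM in the Grem1 cluster. The order of the type I and type III chains was turned round between the 2 clusters. In the Dpt cluster the ratio of Col3a1 to Col1a1 UMIs was 2.26 (2.24 to 2.28) in the aged and 2.26 (2.23 to 2.28) in the young pool, and in the Grem1 cluster it was 0.54 (0.53 to 0.54) and 0.54 (0.53 to 0.55). Within either cluster the ratio was thus the same in both pools within counting error, while the clusters stood far apart in both. Within finer groups of both it did differ by pool: it was 2.54 in aged and 2.82 in young cells of a sub-cluster led by Dpp4, and 1.48 and 1.28 in one led by Cilp. In the Grem1 cluster it was 0.74 (0.71 to 0.77) and 0.44 (0.42 to 0.46) in a sub-cluster led by Mmp10 and neutrophil genes, and 0.71 and 0.79 in one led by Areg.

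Several other single chains also differed between these clusters. Col14a1, a FACIT chain bound to fibrils of the dermis and tendon, was at 1280 CPM in aged and 1372 CPM in young cells of the Dpt cluster, and at 31.0 and 20.9 CPM in the Grem1 cluster. Col7a1, the chain of the anchoring fibrils that tie basement membrane to stroma, ran the other way, with 125 CPM in aged and 86.0 CPM in young cells of the Grem1 cluster against 3.71 and 5.25 CPM in the Dpt cluster. Col28a1 had 680 UMIs in aged and 253 UMIs in young fibroblast-like cells, and all but 1 of the aged and 8 of the young were in the Dpt cluster. Col6a6, a long chain of type VI, was also nearly confined to it, at 28.7 CPM in the aged and 36.2 CPM in the young pool, with 2 aged and 5 young UMIs in the Grem1 cluster. Col6a5, another long chain, had 80 aged and 13 young UMIs in the Dpt cluster and 5 and 1 in the Grem1 cluster. The main type VI chains were found in both: Col6a1 was at 632 and 658 CPM in aged and young cells of the Dpt cluster and at 501 and 359 CPM in the Grem1 cluster.

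Finer groups of the stromal cells, cut at a resolution chosen after the data had been seen, placed several members more closely. Col11a1, a minor fibrillar chain of cartilage and of activated fibroblasts, was at 329 CPM in aged and 307 CPM in young cells of a contractile sub-cluster led by Mmp13, Lrrc15 and Cnn1. It was at 215 and 257 CPM in a sub-cluster led by C1qtnf3, Cilp and Sfrp1, and at 0.93 and 0.45 CPM in one led by Dpp4, Sema3c and Wnt2. In both pools Col11a1 was thus highest in the same 2 sub-clusters, although Lrrc15 cells came from the Grem1 cluster and Cilp cells from the Dpt cluster. Col12a1, a FACIT found on fibrils of tissue under load, was highest in the same pair, at 2199 and 2815 CPM in aged and young Lrrc15 cells and 1367 and 1829 CPM in Cilp cells, against 237 and 193 CPM in Dpp4 cells.

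Col14a1 was highest in the Dpp4 sub-cluster, at 1920 CPM in the aged and 1889 CPM in the young pool, and was at 84.2 and 109 CPM in Lrrc15 cells. Col7a1 was highest in Lrrc15 cells, at 376 and 402 CPM. Col28a1 was highest in a sub-cluster led by Lpl, Cpxm1 and Apod, at 225 CPM in 136 aged cells and 181 CPM in 41 young cells. The sub-cluster led by Areg, Hmga2 and Il11 had the lowest collagen share of the larger sub-clusters, 0.601% of UMIs in its 164 aged and 0.494% in its 200 young cells, and its cells were deep, with medians of 47823 and 51663 UMIs.

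Basement membrane collagen of the stroma was highest, as a level, in Rgs5, Lpl and Lrrc15 cells. A sub-cluster of 36 aged and 16 young cells led by Rgs5, Higd1b and Notch3, genes of pericytes, had Col4a1 at 3712 CPM in the aged and 4281 CPM in the young pool, below the level in endothelial-like cells. The Lpl sub-cluster had Col4a1 at 1570 and 1559 CPM, the Lrrc15 sub-cluster at 836 and 880 CPM, and the Dpp4 sub-cluster at 228 and 257 CPM. By UMIs of all type IV genes, Lrrc15 cells held 4339 in the aged and 2296 in the young pool, Lpl cells 5242 and 1403, and Rgs5 cells 3002 and 1453. The chains Col4a1 and Col4a2, which are joined in 1 helix and are transcribed from a shared promoter region in mice, were counted in ratios that varied by group of cells. Col4a1 UMIs were 1.81 (1.75 to 1.87) times those of Col4a2 in aged and 1.72 (1.66 to 1.77) times in young endothelial-like cells, 1.81 and 1.94 times in Rgs5 cells, and 2.00 and 1.97 times in the Dpt cluster. The ratio was lower in the Areg sub-cluster, 1.52 (1.37 to 1.70) in the aged and 1.30 (1.16 to 1.45) in the young pool, and higher in the Dpp4 sub-cluster, 2.27 (2.03 to 2.55) and 2.38 (2.04 to 2.78). In immune classes, with few UMIs of either chain, it ranged more widely, from 1.14 and 1.09 in neutrophil-like to 3.67 and 3.78 in monocyte-like cells. Across single cells their CPM went together as well, with Spearman's rho of 0.79 in 610 aged and 0.75 in 292 young cells of the Dpt cluster and of 0.83 in both pools of endothelial-like cells. These correlations describe cells of 1 library each, which share depth and free RNA.

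Col1a1 and Col1a2, the chains of type I collagen, also went together over cells. Spearman's rho was 0.84 in aged and 0.75 in young cells of the Dpt cluster and 0.91 and 0.90 in the Grem1 cluster. In the Grem1 cluster Col1a1 went with fibrillar, beaded and basement membrane chains, with rho of 0.88 in the aged and 0.83 in the young pool for Col3a1, 0.83 and 0.80 for Col6a1, and 0.61 in both for Col4a1. In the Dpt cluster rho with Col1a1 was lower for these chains: 0.51 in the aged and 0.46 in the young pool for Col3a1, 0.19 and 0.26 for Col6a1, and -0.33 and -0.14 for Col4a1. It was 0.62 in both pools for Col5a2 and 0.48 and 0.46 for Col12a1. Both clusters join sub-clusters with unlike collagen levels, such as Areg and Lrrc15 cells, at 0.601% and 3.89% of UMIs in the aged pool. Correlations within sub-clusters were not computed, and the part of this mix in the values was not tested.

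Between the pools, fibroblast-like cells of the aged matrix pool had more collagen RNA than those of the young. Collagens were 2.99% of their UMIs in the aged pool and 1.94% in the young pool, a ratio of 1.54 (1.53 to 1.55). A gene was counted as measured at 20 CPM or more in the higher pool and 100 UMIs or more in all, and as apart at 1.5-fold. Of 21 collagen genes measured, 5 were higher and 0 were lower in the aged pool, beside 3.11% and 1.12% of all 5876 genes measured. The 5 were 3 of the major fibrillar chains, 1 FACIT and Col28a1. The median log2 ratio of the 21 was 0.36, beside -0.05 over all genes measured.

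Col3a1, the chain of type III collagen, was at 10424 CPM in the aged and 5930 CPM in the young pool, a ratio of 1.76 (1.75 to 1.77). Col1a2 was at 6886 and 4391 CPM, a ratio of 1.57 (1.56 to 1.58). Col1a1 was at 6222 and 4069 CPM, a ratio of 1.53 (1.52 to 1.54). These chains were found in almost every cell, with Col1a1 in 98.2% of aged and 98.4% of young cells, so the pools differed little in how many cells held them. Col14a1 was at 593 and 389 CPM, a ratio of 1.52 (1.48 to 1.57), and Col28a1 at 25.8 and 12.5 CPM, a ratio of 2.07 (1.79 to 2.40). As a mean over the 2 clusters the log2 ratio of Col28a1 was -1.30, since the Grem1 cluster held 1 aged and 8 young UMIs of it.

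The other types stood closer together. By summed UMIs the ratio was 1.61 (1.60 to 1.61) for fibrillar, 1.37 (1.33 to 1.40) for basement membrane, 1.29 (1.27 to 1.32) for FACIT, 1.19 (1.17 to 1.21) for beaded and 0.968 (0.936 to 1.001) for short-chain network collagens. Among the fibrillar partners, Col5a1 was at 601 CPM in the aged and 456 CPM in the young pool, Col5a2 at 1198 and 851 CPM and Col5a3 at 317 and 249 CPM. The lowest fibrillar ratio was that of Col27a1, at 27.8 and 23.1 CPM, a ratio of 1.20 (1.07 to 1.36). Of the type VI chains Col6a2 was highest, at 365 and 285 CPM, a ratio of 1.28 (1.24 to 1.32), and Col6a3 lowest, at 600.1 and 557 CPM, a ratio of 1.08 (1.05 to 1.10). Of the FACITs Col16a1 was lowest, at 141 and 132 CPM, a ratio of 1.06 (1.01 to 1.12), and Col4a1 stood at 371 and 261 CPM, above Col4a2 at 196 and 154 CPM in ratio as well, 1.42 (1.37 to 1.47) against 1.28 (1.22 to 1.33). The lowest single ratio was that of Col18a1, a multiplexin and the source of endostatin, at 90.5 CPM in the aged and 101 CPM in the young pool, a ratio of 0.90 (0.85 to 0.95). Col8a1, the main short-chain network member here, was at 288 and 302 CPM, a ratio of 0.95 (0.92 to 0.99).

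The 2 clusters made up different parts of the fibroblast-like class in the pools. The collagen-rich Dpt cluster gave 45.0% of the class's UMIs in the aged pool and 27.2% in the young pool, and the Grem1 cluster gave 55.0% and 72.8%. Within the Dpt cluster the summed ratio was 1.13 (1.12 to 1.13), and of 21 collagens measured 0 were higher and 0 lower by 1.5-fold, beside 1.09% and 1.06% of all 5943 genes. The highest there was Col15a1, the other multiplexin, at 122 CPM in the aged and 87.3 CPM in the young pool, a ratio of 1.40 (1.26 to 1.56), and the lowest Col18a1, at 44.9 and 60.7 CPM, a ratio of 0.74 (0.65 to 0.85). Col3a1 was at 20656 and 18007 CPM there, a ratio of 1.15 (1.14 to 1.16). By type, fibrillar collagens had a ratio of 1.15 (1.14 to 1.15), FACITs 0.92 (0.90 to 0.94) and beaded collagens 0.93 (0.91 to 0.95).

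Within the Grem1 cluster the summed ratio was 1.38 (1.37 to 1.39), and all 20 collagens measured were above 1, with a median log2 ratio of 0.44. Of all 5657 genes measured there, 47.0% were above 1, with a median of -0.01. By 1.5-fold, 1 collagen was higher and 0 were lower, beside 1.47% and 0.689% of all genes measured. That gene was Col11a1, at 82.4 CPM in the aged and 50.3 CPM in the young pool, a ratio of 1.64 (1.49 to 1.80). Without cells of the hashing tag H-HTO-4 its log2 ratio was -0.90. That setting leaves out 535 of the 643 young fibroblast-like cells and 3 aged ones, and the cause of the change was not tested. Col1a1 was at 3832 and 2608 CPM, a ratio of 1.47 (1.45 to 1.49), and Col7a1 at 125 and 86.0 CPM, a ratio of 1.45 (1.35 to 1.56). Col8a1 had the lowest ratio, 1.045 (1.004 to 1.088), with 336 CPM in the aged and 322 CPM in the young pool.

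**Figure D2:**
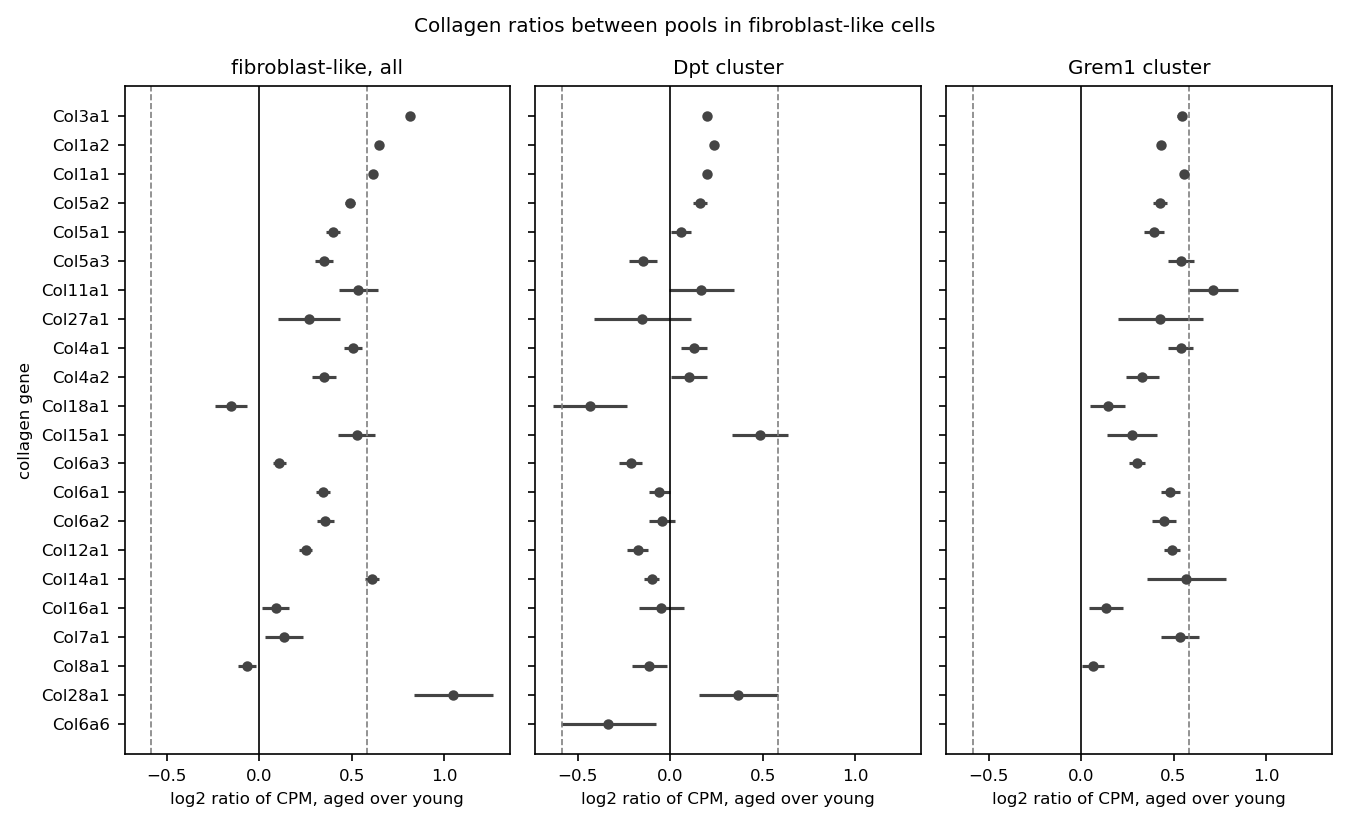
Log2 ratio of CPM, aged over young matrix pool, of each measured collagen gene in all fibroblast-like cells, in the Dpt cluster and in the Grem1 cluster, with exact 95% intervals for counting error as bars and dashed lines at 1.5-fold. In the class as a whole 5 genes lie beyond the upper line, in the Dpt cluster 0 do, and in the Grem1 cluster 1 does, with all 20 genes right of 0.

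The make-up of the Grem1 cluster differed as well. Lrrc15 cells, with a collagen share of 3.89% in the aged and 4.44% in the young pool, numbered 142 and 78, while the collagen-poor Areg cells numbered 164 and 200. Within sub-clusters the summed ratio was 1.22 (1.20 to 1.23) in Areg, 1.18 (1.17 to 1.19) in Dpp4, 0.994 (0.986 to 1.003) in Cilp and 0.877 (0.869 to 0.885) in Lrrc15 cells. It was 1.22 (1.20 to 1.24) in Mmp10 cells and 1.20 (1.18 to 1.21) in the dividing cells described below. Single chains stood apart from these sums. In Cilp cells Col4a1 was at 203 CPM in the aged and 377 CPM in the young pool, a ratio of 0.54 (0.48 to 0.60), Col4a2 had a ratio of 0.54 (0.47 to 0.62), and 4 of 22 measured collagens were lower and 0 higher by 1.5-fold, beside 6.75% and 4.19% of all 5510 genes there. The other two were Col18a1, at 27.4 and 53.3 CPM, and Col28a1, at 12.5 and 48.6 CPM. In cells led by Ube2c, Cenpf and Top2a, which are genes of dividing cells (70 aged, 51 young), 9 of 20 measured collagens were higher and 0 lower, beside 1.87% and 3.55% of all 6091 genes. Col4a1 was the highest of these, at 305 CPM in the aged and 125 CPM in the young pool, a ratio of 2.44 (2.15 to 2.77), while Col1a2 was at 4564 and 4484 CPM, a ratio of 1.02 (0.99 to 1.04). The dividing cells were uneven, with a collagen share per cell of 1.94% and 0.715% as medians and 2.52% and 2.14% as means. Areg cells had 0 of 17 measured collagens higher and 1 lower, beside 0.411% and 0.375% of all genes. Dpp4 cells had 1 and 1 of 20, beside 2.27% and 1.18%. Lrrc15 cells had 1 and 0 of 22, beside 1.99% and 2.13%. Mmp10 cells had 2 and 2 of 20, beside 3.87% and 3.61%.

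The pooled ratio gives most weight to deep cells, and it was smaller when that weight was removed: with every cell weighted equally the log2 ratio of summed collagen was 0.34, against 0.62, and 1 gene, Col28a1, remained 1.5-fold apart. The mean log2 ratio was 0.32 over the 2 clusters. It was 0.12 over the 5 sub-clusters that came mostly from these clusters and had 50 or more cells in each pool. This mean leaves out the dividing cells of the Tagln cluster and includes the sub-cluster led by Mmp10 and neutrophil genes. Without sub-clusters led by neutrophil or macrophage genes 8 collagen genes in place of 5 were apart. The share of all genes 1.5-fold apart was not computed under these settings. Fibroblast-like cells also carried neutrophil markers, 7 of 8 at 20 CPM or more, with a summed level of 2930 CPM in the aged and 3385 CPM in the young pool, and their part in the collagen ratios was not tested. Of the young fibroblast-like cells 535 of 643 carried the hashing tag H-HTO-4 and of the aged 751 of 1017 carried H-HTO-2. Without the first set the log2 ratio was 0.21 and without the second 0.79.

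**Figure D3:**
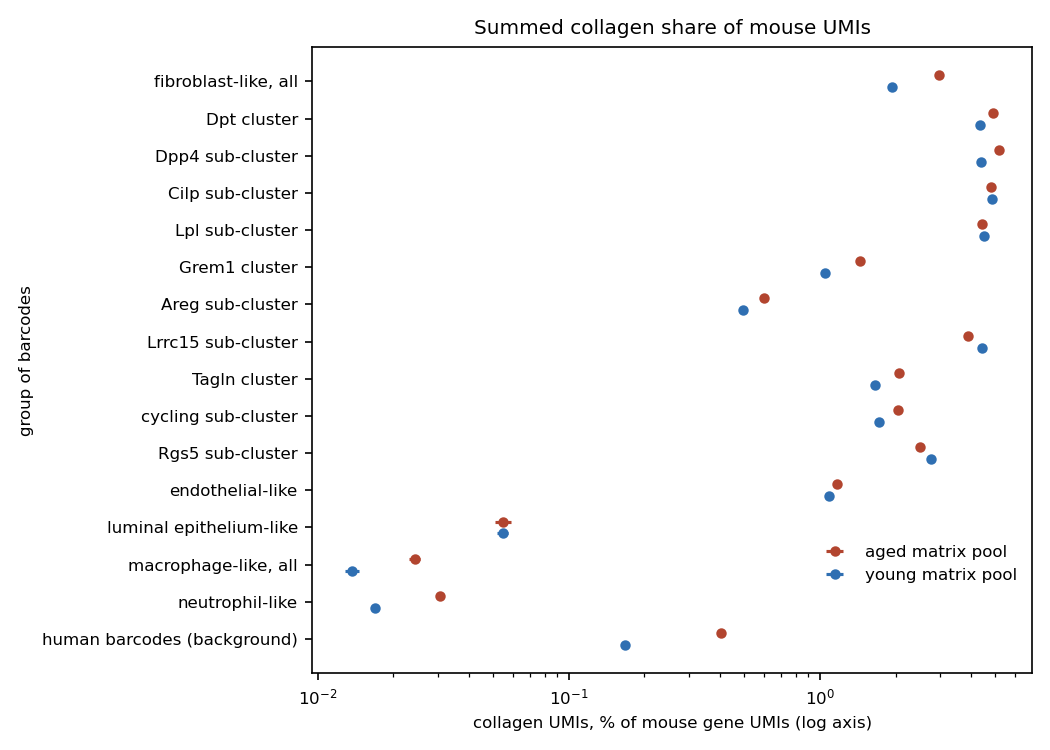
Collagen UMIs as a percentage of mouse gene UMIs, on a log axis, in each group of barcodes, with the aged matrix pool above the young one and exact 95% intervals for counting error. The gap between pools is wide in all fibroblast-like cells, 2.99% and 1.94%, and small within the Dpp4, Cilp, Lpl and Lrrc15 sub-clusters, where the order of the pools also differs.

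The genes that fold, modify and cross-link collagen were read in the same cells. Of 32 listed genes 27 were measured in fibroblast-like cells, 0 were 1.5-fold higher, 0 were lower and 22 were above 1, with a median log2 ratio of 0.18. Over all genes measured there, 3.11% were higher, 1.12% were lower and 40.7% were above 1, with a median of -0.05. Within the Dpt cluster the median of the list was 0.07, beside -0.04 for the collagens and -0.08 for all genes measured. In the Grem1 cluster it was 0.16, beside 0.44 for the collagens and -0.01 for all genes measured. The highest were Plod1, a lysyl hydroxylase, at 80.2 CPM in the aged and 55.2 CPM in the young pool, and Lox, the enzyme that starts collagen cross-links, at 497 and 351 CPM, a ratio of 1.42 (1.38 to 1.46). Serpinh1, the collagen chaperone HSP47, was at 1371 and 1158 CPM, a ratio of 1.18 (1.16 to 1.20). The lowest was Adamts14, which trims procollagen ends, at 20.3 and 25.4 CPM, a ratio of 0.80 (0.71 to 0.90). Of 10 collagen receptors 4 were measured, 0 were higher and 1 was lower, against the same 3.11% and 1.12% of all genes: Itga2, a subunit of a collagen-binding integrin, at 23.5 CPM in the aged and 38.8 CPM in the young pool, a ratio of 0.61 (0.55 to 0.68). In the Grem1 cluster, with 563 of its 621 aged and 736 of its 787 young UMIs, Itga2 had a ratio of 0.78 (0.70 to 0.87), and 0 receptors were 1.5-fold apart in either cluster.

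Endothelial-like cells, in which all 9 endothelial markers were detected, made a vessel set of collagens at nearly the same level in both pools. Col4a1 was at 5317 CPM (5212 to 5424) in the aged and 5362 CPM (5258 to 5466) in the young pool, a ratio of 0.99 (0.97 to 1.02), and was found in 121 of 121 aged and 122 of 124 young cells. Col4a2 was at 2933 and 3126 CPM. Col18a1 was at 1338 and 1450 CPM, a ratio of 0.92 (0.87 to 0.98), and Col15a1 at 619 and 607 CPM, a ratio of 1.02 (0.94 to 1.11). Col13a1, a transmembrane collagen of cell contacts, was at 178 and 204 CPM here, and at 0.38 and 0.25 CPM in fibroblast-like cells.

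Of 11 collagens measured in these cells, 5 were higher and 0 were lower in the aged pool, beside 2.79% and 1.83% of all 5233 genes measured. The 5 were Col1a1, Col1a2, Col3a1, Col5a2 and Col12a1, all at higher levels in fibroblast-like cells. Col1a1 was at 379 CPM in the aged and 8.34 CPM in the young pool. Its 696 aged UMIs were not spread over the cells: the 4 highest cells held 283, 142, 131 and 112, and the fifth held 3. Col3a1 had 640 aged UMIs, of which 4 cells held 357, 124, 91 and 28, and the highest young cell held 2 of either gene. Fibroblast markers summed to 342 CPM in aged and 33.4 CPM in young endothelial-like cells, and 5 aged and 0 young cells held 10 or more fibroblast marker UMIs. Neutrophil markers summed to 4599 CPM in aged and 2684 CPM in young endothelial-like cells, and their part was not tested. Without the 5 cells with fibroblast markers Col1a1 was at 15.99 CPM in the aged and 8.34 CPM in the young pool, Col3a1 was at 22.5 and 7.82 CPM, and Col4a1 at 5433 and 5362 CPM. Col12a1 turned round, with a log2 ratio of -0.30 without those cells and of -1.05 without cells of the tag H-HTO-2. These values rest on few counts, as all FACIT genes together had 148 aged and 8 young UMIs in endothelial-like cells. The young pool also held only 16 UMIs of Col1a1, 15 of Col3a1 and 4 of Col5a2.

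**Figure D4:**
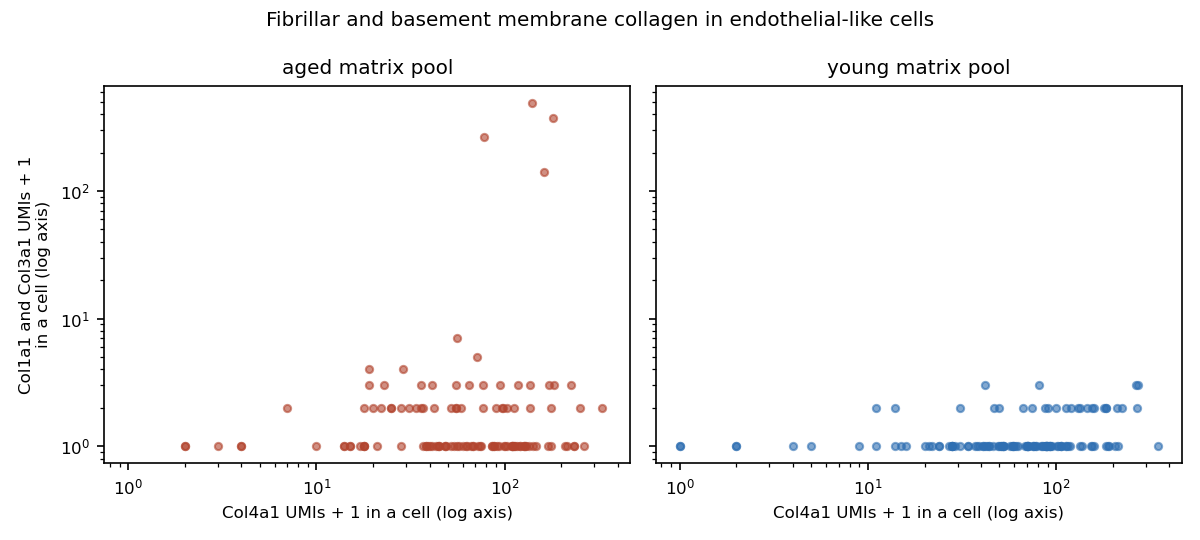
Each point is 1 endothelial-like cell, the aged matrix pool at the left, with Col4a1 UMIs + 1 on the horizontal and the sum of Col1a1 and Col3a1 UMIs + 1 on the vertical axis, both log. In the aged pool 4 cells stand far above the others in fibrillar collagen, and no young cell does.

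A small cluster led by Ccl21a, Mmrn1, Lyve1 and Prox1, genes of lymphatic endothelium, was left unnamed (19 aged and 27 young cells), and with so few cells its pools are set side by side only. Col23a1, a transmembrane collagen, was at 118 CPM in its aged and 81.7 CPM in its young cells, against 17.0 and 12.2 CPM in fibroblast-like cells. Col18a1 was at 717 and 556 CPM there, and Col4a1 at 806 and 893 CPM, below the level in endothelial-like cells. A single aged cell held 65.8% of the aged Col18a1 UMIs and 49.7% of the aged Col4a1 UMIs.

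Luminal epithelium-like cells of the host (61 aged and 101 young) spent 0.0547% and 0.0545% of their UMIs on collagen, and had a profile of their own. Type IX collagen, a FACIT best known from cartilage, was read here from all its chains: Col9a1 at 26.4 CPM in the aged and 23.7 CPM in the young pool, Col9a3 at 19.3 and 13.2 CPM, and Col9a2 at 13.6 and 11.7 CPM. Col9a1 was not detected in the fibroblast-like cells or the human barcodes of either pool. In fibroblast-like cells 0 UMIs allow a level of up to 0.114 CPM in the aged and 0.148 CPM in the young pool, by the limit of 3 counts. Col8a1 was at 171 and 143 CPM, and Col4a5, a basement membrane chain of some epithelia, at 22.8 and 22.2 CPM. Of 6 collagens measured 0 were higher and 1 was lower in the aged pool, beside 2.89% and 3.82% of all 5233 genes measured. That gene was Col6a3, at 49.9 CPM (38.9 to 63.1) in the aged and 114 CPM (102 to 128) in the young pool, a ratio of 0.44 (0.33 to 0.57), read in 23 aged and 49 young cells. Neutrophil markers, 7 of 8 at 20 CPM or more, summed to 1860 CPM in aged and 7325 CPM in young luminal epithelium-like cells, and fibroblast markers to 774 and 724 CPM. Their part in the Col6a3 ratio was not tested.

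Neutrophil-like cells held no more of the collagens compared, per cell, than the human barcodes used here as a measure of background. Barcodes of human cells, which have no mouse genes of their own, held 2.60 mouse collagen UMIs per barcode in the aged and 1.12 in the young pool, on medians of 234 and 214.5 mouse UMIs. The 2436 aged and 2494 young human barcodes held 1577865 and 1672557 mouse UMIs in all, so mean depths lie well above these medians. They were called at 90% human UMIs without a doublet filter. Free RNA and RNA of a host cell caught with a human cell were thus not told apart. Neutrophil-like cells held 0.695 and 0.406 per cell on medians of 1955 and 2028.5 mouse UMIs. Of 13 collagens with 100 or more UMIs in the human barcodes, 0 were higher per cell in neutrophil-like cells in either pool. Within that limit, neutrophil-like levels of these genes are read as background. This background was itself higher in the aged pool: Col3a1 was read at 0.927 UMIs per human barcode there and at 0.303 in the young pool, and in 39.3% and 23.02% of human barcodes. Fibroblast-like cells held 775 and 612 collagen UMIs per cell.

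Macrophage-like cells, which are deeper, with medians of 9132 and 10399.5 UMIs, exceeded the human barcodes for 7 of the 13 genes in the aged and 4 in the young pool. Col5a2, Col5a3 and Col14a1 did so in both. Col14a1 was read at 0.443 UMIs per cell in 583 aged and 0.396 in 558 young macrophage-like cells, against 0.051 and 0.015 per human barcode and 0.010 and 0.004 per neutrophil-like cell. The cell with most Col14a1 held 3.10% of the aged and 4.52% of the young Col14a1 UMIs, so no single cell carried it. Col27a1, a fibrillar chain of cartilage, was read at 1.02 UMIs per cell in 65 aged and 1.09 in 76 young cells of the macrophage-like cluster led by Acp5, Ctsk and Ocstamp, genes of osteoclasts and fused macrophages, against 0.003 and 0.001 per human barcode. It was seen in 35.4% of these aged and 47.4% of these young cells. Col4a1 in the same cluster had 79 UMIs in the aged and 0 in the young pool, where 0 allows up to 1.55 CPM, and 94.9% of the aged UMIs lay in 1 cell. The cluster is part of the macrophage-like class, and gave 79 of its 130 aged Col4a1 UMIs and 54 of its 76 aged Col4a2 UMIs. Both genes are among the 7 above, and that count was not computed without the cluster. Cells of the Acp5 cluster were deep, with medians of 25632 and 22650.5 UMIs.

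**Figure D5:**
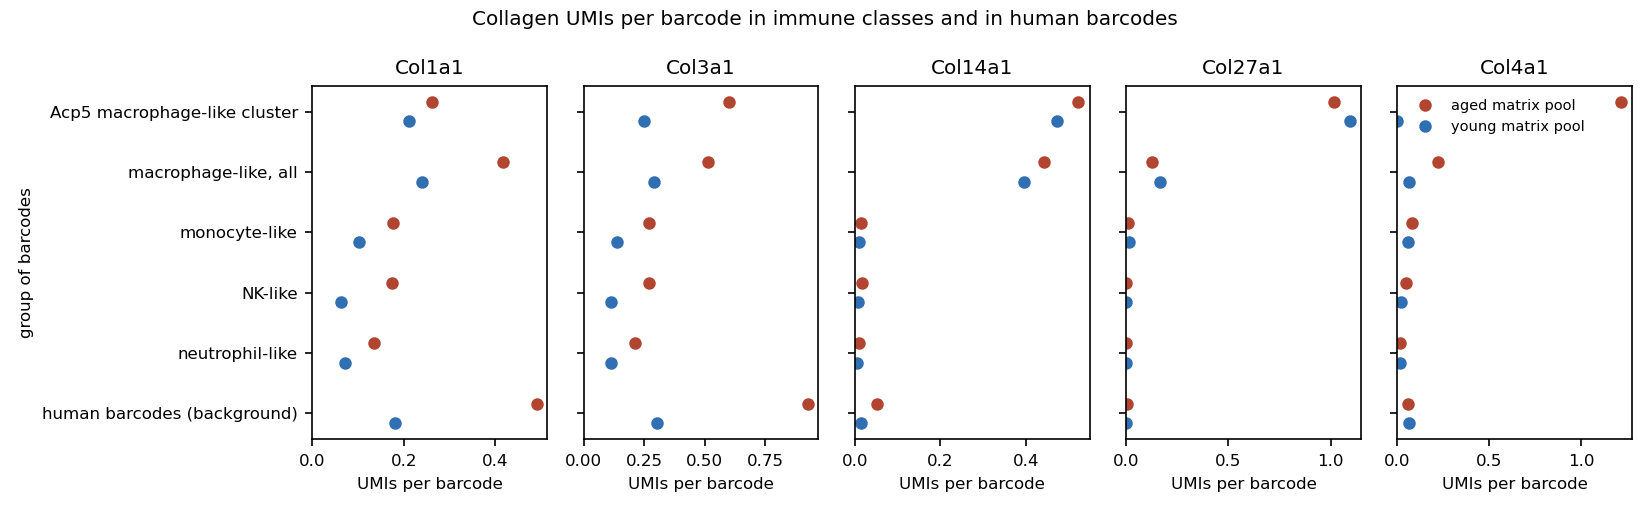
UMIs per barcode of 5 collagen genes in immune classes and in human barcodes, whose mouse UMIs are used as background, with the aged matrix pool above the young one. Col3a1 is highest in human barcodes in both pools and Col1a1 in the aged pool, while in the young pool macrophage-like cells have 0.240 and human barcodes 0.181 Col1a1 UMIs. Col14a1 in macrophage-like cells and Col27a1 in the Acp5 cluster lie above human barcodes in both pools.

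The remaining members were rare. Col24a1, a fibrillar chain, was at 6.60 CPM in aged and 6.31 CPM in young fibroblast-like cells, and Col8a2 at 9.33 and 5.23 CPM. Col17a1, a transmembrane collagen of epithelial anchoring, passed 20 CPM on 6 aged and 11 young UMIs in 30 and 31 plasmacytoid dendritic-like cells. It had 13 aged and 0 young UMIs in luminal epithelium-like cells, 92.3% of them in 1 cell. Col2a1, the main fibrillar chain of cartilage, had 2 UMIs in the aged and 5 in the young pool over all kept cells. Col10a1, of growth plate cartilage, had 12 and 14, and Col4a3 9 and 1.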

How the data were processed

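The authors deposited UMI counts per gene and barcode of 2 gene expression libraries, made with Cell Ranger 6.0.0 against GRCh38 and mm10, per the submitters' processing notes. Whether introns were counted is not given in the sources used here. In the deposited hashing counts 1 tag led in each pool (751 of 1017 aged fibroblast-like cells had H-HTO-2, 535 of 643 young ones H-HTO-4), so cells were not split by animal. Barcodes with at least 90% mouse UMIs, 500 UMIs, 300 genes and at most 20% mitochondrial UMIs were kept. Scrublet scores above 0.25 were removed as doublets (1166 aged, 1045 young). Cells were clustered with scanpy 1.11.5 (2000 variable genes without collagens, 30 components, 15 neighbours, Leiden resolution 1) and named from at least 3 non-collagen markers. Stromal clusters were cut again at resolution 0.5. UMIs were summed per class and pool and given as CPM. Intervals are exact Poisson for levels, exact binomial for shares and exact conditional binomial for ratios (scipy 1.17.1). The 1.5-fold rule was also run on simulated Poisson counts at the depth of the fibroblast-like class. These hold no spread between cells or mice, so they cannot show the error of comparing 1 library per group. Members at 20 CPM or more in a named class were described, with ratios for those 1.5-fold apart in a class of at least 50 cells in each pool and for the highest and lowest of each type. Other genes named, and the sub-clusters, were chosen after their values were seen. TMM factors came from edgeR 4.0.16. Members and lists were chosen with earlier results of these data known. Nothing says that the pools hold equal numbers of mice.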

Additional observations from a re-analysis of the deposited data

How the results depend on the processing

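No paired analysis was possible because each group has 1 library, and for the same reason no replicate could be left out. In fibroblast-like cells the log2 ratio of summed collagen (0.62, aged over young) was 0.64 at 98% mouse UMIs, 0.63 without a doublet filter, 0.34 with cells weighted equally, 0.34 with cells thinned to 2000 UMIs, 0.32 as a mean of clusters, 0.79 without cells of tag H-HTO-2 (751 aged and 1 young) and 0.21 without cells of tag H-HTO-4 (3 aged and 535 young). Alternatives chosen after the data were seen gave 0.12 as a mean of sub-clusters and 0.68 without sub-clusters led by neutrophil or macrophage genes. The count of collagens 1.5-fold apart (5) was 1 with equal weights, 1 after thinning, 15 with no minimum level, 10 without H-HTO-2 cells and 8 without the sub-clusters led by neutrophil or macrophage genes. With no minimum level a gene needed only 1 UMI in each pool. The share of all genes that were 1.5-fold apart was not computed under these settings, so these counts have no background beside them. The share of host collagen in aged fibroblast-like cells (88.1%) was 88.6% at 98% mouse UMIs, 87.9% without a doublet filter, 82.1% with equal weights, 86.7% after thinning, 87.6% without H-HTO-2 cells and 86.4% without those sub-clusters. In young cells (83.0%) it was 83.4%, 83.2%, 78.3% and 82.8% under the same first 4 settings, 83.5% with collagens kept in the clustering, 74.7% without H-HTO-4 cells and 80.1% without those sub-clusters. TMM and median-of-ratios scaling gave 0.63 and 0.62 and left the count at 5.

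Single genes gave 56 ratios and 645 values under the alternatives. Of these values, 38 at 100 CPM or more and 56 with no minimum level repeat the first ratio. Those settings change only which genes are counted. Sign changes were counted only for the 12 ratios that were 1.5-fold apart at first. Those gave 151 values, repeats included, of which 129 stayed 1.5-fold or more apart in either direction and 4 changed sign. The repeats could not move, so the 129 overstates how stable these ratios were. Sign changes of the other ratios, some of them near 1, were not counted. Col12a1 in endothelial-like cells had a log2 ratio of -1.05 without H-HTO-2 cells and -0.30 without cells holding 10 or more fibroblast marker UMIs. All FACIT genes together had 8 young UMIs in endothelial-like cells. Col11a1 in the Grem1 cluster was at -0.90 without H-HTO-4 cells. Col28a1 in fibroblast-like cells was at -1.30 as a mean of clusters, where the Grem1 cluster held 1 aged and 8 young UMIs. For the other moves the cause was not tested. Counting error is small for the major chains and wide for members with under 100 UMIs, and the spread between animals is unknown.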
